A study of Mus musculus with 18 samples.

Results

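The genes described here carry a Zfp symbol, the name given in mouse to proteins built around zinc fingers. They were chosen by their symbol (Zfp, a number and at most 1 further letter) and by a measured value, a mean of at least 50 estimated counts over the 18 libraries, with Zfp36 left out. The rule took 268 genes of the 378 with such a symbol and of the 16614 genes in the table. The 3 members just inside the minimum were Zfp69, Zfp566 and Zfp229, with mean counts of 50.2, 53.8 and 54.0, and the 3 symbols just outside were Zfp11, Zfp383 and Zfp442, with 48.5, 48.1 and 43.7. All 268 members also passed the filter on low counts, which kept 11989 genes.

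The series compared gene expression in mouse bone marrow-derived dendritic cells of 2 genotypes, labelled WT and KO, with and without lipopolysaccharide (LPS), the bacterial outer membrane component sensed by Toll-like receptor 4. STAT5 and STAT3, and the balance between them, are named in its title. Control samples numbered 4 in each genotype, and LPS samples 5 in each. All were grown from bone marrow for 7 to 10 days in Flt3L at 100 ng/ml together with GM-CSF at 20 ng/ml and enriched for XCR1+ cells by sorting or with beads. The labels give no name for the deleted gene, no strain or age, no dose or duration of LPS, and no word on whether replicates were separate animals or cultures, so p-values measure the spread between these samples. The genotype could therefore not be checked on the targeted gene.

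A classical zinc finger is a short loop held by cysteines and histidines, and rows of such C2H2 fingers read DNA. In many Zfp proteins the fingers follow a KRAB domain, which recruits the corepressor Trim28 (KAP1) and, through it, the histone H3 lysine methyltransferase Setdb1 and HP1 proteins (Cbx1, Cbx3, Cbx5) to silence retroelements and some genes. Other Zfp proteins have no KRAB domain and work as transcription factors, RNA-binding proteins or ubiquitin ligases.

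Not all members had a match to the repressor domain. Of the 266 members with an open reading frame in GENCODE M21, 144 carried a KRAB A-box match, 122 did not, and 2 members had no matched reading frame. A match meant at least 11 of 16 positions of the box, with 140 members at 13 or more and 118 at under 9. The members held 10 C2H2 fingers at the median (range 0 to 36).

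Libraries held 25590104 to 27375189 estimated counts. Levels below are CPM, counts relative to the size of the library, scaled with TMM factors, which correct for a few abundant genes taking a larger share of a library. These factors averaged 1.36 in WT control and 1.32 in KO control but 0.814 in WT LPS and 0.769 in KO LPS. Without them, with total-count scaling, the median log2 fold change of all tested genes with LPS was -0.80 in WT and -0.88 in KO, in place of -0.06 and -0.10. Directions with LPS are therefore relative to the median gene. The cDC1 markers (9 of 9 present) summed to 7556 to 7866 CPM in WT control and 5890 to 7267 CPM in WT LPS, and to 6922 to 8076 CPM in KO control and 5568 to 6424 CPM in KO LPS libraries. Within each genotype the LPS libraries were thus below the control libraries without overlap. Markers of plasmacytoid dendritic cells (5 genes, Siglech, Bst2, Tcf4, Ccr9 and Ly6d) summed to 80.5 to 90.8 CPM in control and 466 to 671 CPM in LPS libraries. Ly6d stayed under 1 CPM in every library, and the sum does not show which of the other genes rose. Markers of monocytes and macrophages (9 genes) summed to 1104 to 1713 CPM over all libraries. Of the 5 neutrophil markers, Ly6g, Mpo and Elane stayed under 1 CPM everywhere, and the sum reached 59.3 CPM in 1 WT LPS library. What part these marker levels have in the results was not tested. In bulk samples, fewer cells of a type and less RNA per cell cannot be told apart. Among LPS libraries, WT LPS replicate 2 had the lowest WT factor (0.745, others 0.807 to 0.850) and lay among the KO libraries for Zfp740 and above all other WT LPS libraries for Zfp800 and Zfp62. KO control replicate 4 stood apart for Zfp366.

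Promoter sequences of the members are shown first, because 1 stretch of letters recurred in them. The RefSeq promoter table (GRCm38.p6, 250 bases before to 50 after the start of transcription) matched 226 of the 268 members. The letters ACTACA followed, after any 1 base, by TTCCC were searched on both strands. They form the core of an element known to bind the zinc finger activator ZNF143. Its mouse gene, Zfp143, is itself 1 of the 268 members, without a KRAB match. Whether it has a part in the responses below was not tested. They were found in 33 of 226 members (14.6%) and in 1.09% of all 27025 genes of the table. Because these letters were chosen after the members' promoters had been looked at, both shares are descriptions. Among members with a KRAB match, 27 of 128 promoters held them (21.1%), and among the others 6 of 96 (6.25%). The 27025 genes were not limited to those tested in these cells, and member promoters differed from them in other ways. The median number of CpG was 16 against 8. An Sp1 motif (GGGCGG) stood in 52.2% of member promoters against 38.2%, and an ETS motif (CCGGAAG) in 23.9% against 9.93%. Below are 3 members with the letters, picked for the lowest log2 fold changes with LPS in WT (1 of the copies Zfp874a and Zfp874b at most), Zfp874b at chr13:67484204-67484503, minus strand, Zfp661 at chr2:127584628-127584927, minus strand, and Zfp566 at chr7:30090461-30090760, minus strand, all GRCm38.p6. Each is written 5′ to 3′ along the gene, with the matching 12 bases in capitals, in Zfp874b and Zfp661 as the reverse complement. Positions are on that build, whereas the authors' counts are on GRCm39.
Zfp874b: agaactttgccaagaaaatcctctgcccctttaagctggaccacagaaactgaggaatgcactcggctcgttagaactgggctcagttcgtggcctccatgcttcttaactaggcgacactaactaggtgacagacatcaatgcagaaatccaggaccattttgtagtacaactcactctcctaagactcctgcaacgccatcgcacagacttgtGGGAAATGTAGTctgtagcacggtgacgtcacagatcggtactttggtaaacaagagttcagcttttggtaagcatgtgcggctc
Zfp661: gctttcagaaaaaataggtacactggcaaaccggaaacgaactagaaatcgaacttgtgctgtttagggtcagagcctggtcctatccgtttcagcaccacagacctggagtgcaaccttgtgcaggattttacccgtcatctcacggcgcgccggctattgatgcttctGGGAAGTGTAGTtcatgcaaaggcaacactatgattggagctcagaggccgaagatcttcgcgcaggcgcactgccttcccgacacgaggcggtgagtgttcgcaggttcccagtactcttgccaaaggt
Zfp566: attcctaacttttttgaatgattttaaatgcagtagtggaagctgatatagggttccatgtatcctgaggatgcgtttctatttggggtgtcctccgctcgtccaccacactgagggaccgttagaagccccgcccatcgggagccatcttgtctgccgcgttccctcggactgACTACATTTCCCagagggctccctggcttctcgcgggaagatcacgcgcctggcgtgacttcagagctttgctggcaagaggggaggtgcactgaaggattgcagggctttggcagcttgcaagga

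The matching bases began 35 bases before the start of transcription in Zfp874b, 80 bases before it in Zfp661 and 76 bases before it in Zfp566. Members with the letters ranged from -3.03 to 1.30 in log2 fold change with LPS in WT, and members without them from -3.19 to 2.70. For contrast, 2 members that rose with LPS are shown, Zfp382 at chr7:30121682-30121981, plus strand, and Zfp800 at chr6:28261875-28262174, minus strand, both GRCm38.p6. Neither window held these letters, an NF-kB motif or the STAT-type letters TTCNNNGAA, so no base is in capitals.
Zfp382: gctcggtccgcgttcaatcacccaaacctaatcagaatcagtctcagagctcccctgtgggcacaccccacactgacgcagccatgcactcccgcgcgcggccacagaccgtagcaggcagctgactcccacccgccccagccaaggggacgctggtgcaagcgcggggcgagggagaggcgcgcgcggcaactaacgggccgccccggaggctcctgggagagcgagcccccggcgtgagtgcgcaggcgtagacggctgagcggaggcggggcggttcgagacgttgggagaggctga
Zfp800: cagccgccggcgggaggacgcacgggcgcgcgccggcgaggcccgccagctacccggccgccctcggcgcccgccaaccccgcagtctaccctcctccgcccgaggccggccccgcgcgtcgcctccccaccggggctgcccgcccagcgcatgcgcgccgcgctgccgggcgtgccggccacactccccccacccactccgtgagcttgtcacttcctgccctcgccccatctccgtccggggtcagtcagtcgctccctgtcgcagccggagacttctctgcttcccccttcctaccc

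Letters of the NF-kB motif stood in 10 of 226 member promoters (4.42%) and in 5.14% of all genes. The palindromic letters TTCNNNGAA, the core to which STAT proteins bind, stood in 37 member promoters (16.4%) and in 9.55% of all genes. The ZNF143-type letters can run into TTCNNNGAA and share bases with it. Counting only matches that share no base with them, 29 members (12.8%) and 9.33% of all genes had TTCNNNGAA. Such a match is a string of letters and not a measured site. All genes here are again those of the promoter table, with the differences from member promoters given above.

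In WT, LPS was set against control to see how the members responded to stimulation. Most of them were lower with LPS. Of 268 members, 182 fell (67.9%) and 53 rose (19.8%) in edgeR's quasi-likelihood test at an adjusted p under 0.05, while of all 11989 genes tested 44.7% fell and 40.7% rose. The median log2 fold change was -0.59 for the members and -0.06 for all genes. The distance depended on the level, taken as a mean over all 18 libraries that includes those with LPS. Of the 174 members with a mean count of at least 200, 58.6% fell and 27% rose, with a median of -0.29, against 41.6% and 45.6% of the 8574 genes at that level, with a median of 0.05. A fold of at least 2 was passed by 100 falling and 16 rising members, against 23.9% and 19.4% of all genes. Every LPS library lay below every control library for 172 members and above for 47, against 41.3% and 36.6% of all genes. With total-count scaling, 239 members fell (89.2%) and 18 rose (6.72%), against 69.9% and 19.9% of all genes, and the distance between the 2 medians was -0.52 in place of -0.53. Of the 109 Zfp symbols below the minimum on the mean count, 54 passed the filter, and of these 43 fell (79.6%) and 3 rose (5.56%). Over all genes, 26.9% fell at 32 CPM and over, 67.6% at 4 to 8 CPM and 50.3% under 4 CPM. A gene this low can pass the filter through the libraries of a single group.

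In KO the response had the same shape. There, 180 members fell (67.2%) and 59 rose (22%), against 46.2% and 40% of all genes, with medians of -0.64 and -0.10. At a mean count of at least 200 the medians were -0.26 and 0.03. At a fold of at least 2, 107 fell and 19 rose, against 26.2% and 20% of all genes. LPS and control libraries did not overlap for 173 members that were lower and 56 that were higher, against 44% and 37.8% of all genes. The LPS responses of WT and KO share no library, and 176 members fell in both, which is 96.7% of those that fell in WT and 97.8% of those that fell in KO. Over all genes tested these shares were 96.1% and 92.9%. In both genotypes 52 rose, 98.1% of those that rose in WT and 88.1% in KO, against 92.6% and 94.3% over all genes. None was called in opposite directions, and of all 11989 genes tested 21 were. At so low a share, none among 268 does not set the members apart. Across the 268 members the log2 fold changes of WT and KO correlated at a Pearson r of 0.988, next to 0.982 across all genes, as a description over genes that share libraries and depth. The library names carry numbers that run in sets of 4, and the labels do not say whether a set marks a batch. In the 4 sets that hold all 4 groups, 185 members (69%) were lower and 62 (23.1%) higher with LPS in every set in WT, against 46.5% and 42.3% of all genes. In KO these were 181 (67.5%) and 60 (22.4%), against 47.3% and 40.8%.

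**Figure D1:**
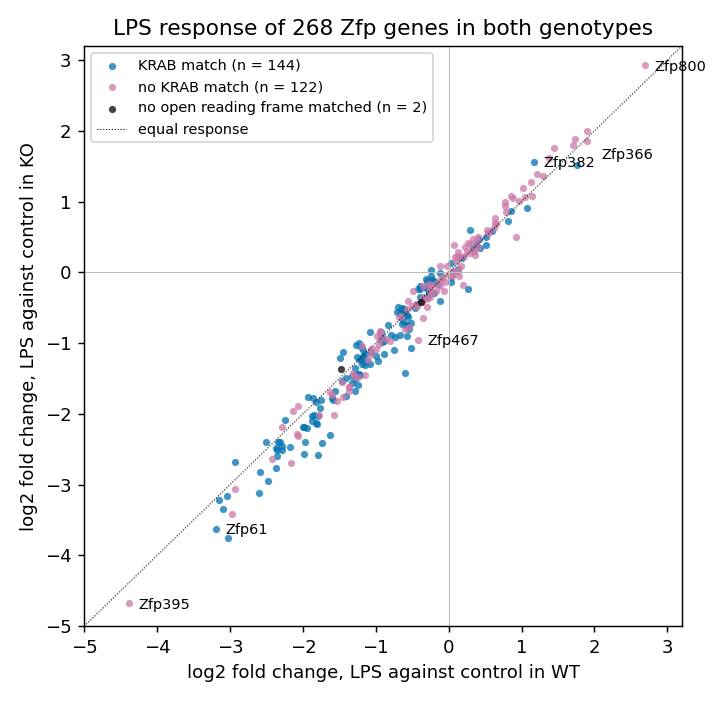
Log2 fold change with LPS in WT (x axis) and in KO (y axis) for 268 Zfp genes, 1 point per gene, blue with a KRAB match (144), pink without (122) and black where no reading frame was matched (2). The points follow the dotted line of equal response, and more lie below 0 on both axes (176 called lower in both genotypes) than above (52 called higher in both).

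The class of the protein went with the response. Of the 144 members with a KRAB match, 120 fell (83.3%) and 13 rose with LPS in WT, with a median of -0.98. Of the 122 members without one, 60 fell (49.2%) and 40 rose, with a median of -0.12, close to that of all genes. In KO the counts were 116 lower and 13 higher with a KRAB match and 62 lower and 46 higher without. The KRAB median minus that of all genes was -1.03 to -0.89 in WT under the TMM, DESeq2 and total-count scalings, with no filter, and with the GC and length correction. With total-count scaling, where 69.9% of all genes fell, 138 KRAB members fell and 3 rose, and of the members without a match 99 fell and 15 rose. Relative to the median of all genes, the medians were then -0.92 with and -0.06 without a KRAB match. Among KRAB members with 10 or more fingers 91 of 105 fell, and among those with fewer 29 of 39 did. No test was run between the classes.

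**Figure D2:**
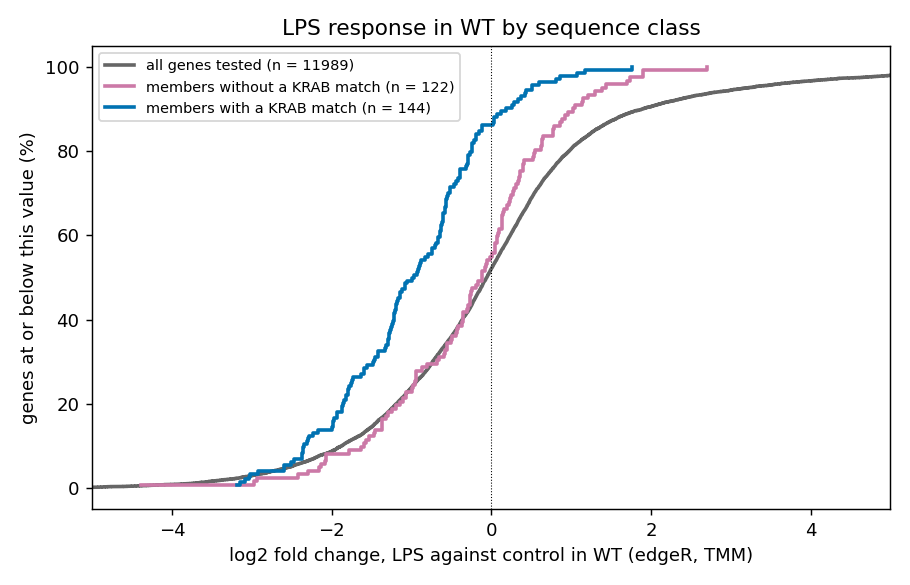
Cumulative share of genes (y axis, percent) at or below a log2 fold change with LPS in WT (x axis, shown from -5 to 5) for all 11989 genes, 122 members without and 144 members with a KRAB match. The KRAB curve lies to the left, with a median of -0.98, and the median of the other members is -0.12.

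KRAB members were also expressed at lower levels, with a median over genes of 3.45 TPM (a relative level that is scaled by length) against 9.56 TPM for the other members. Over all genes, those under 32 CPM fell more often than those above, though least so under 4 CPM. Genes were therefore read within bins of mean CPM. That mean was taken over all 18 libraries, those with LPS included, so a gene that fell also moved towards a lower bin. The link between level and falling is thus in part built in, and bins by control level were not made. Over all members, 84.9% of 53 fell below 4 CPM (50.3% of 2561 genes), 87.7% of 57 at 4 to 8 CPM and 73.2% of 56 at 8 to 16 CPM. At 16 to 32 CPM the members were level with all genes, with 51.8% of 56 lower (median -0.23) against 54.8% (median -0.26). At 32 CPM and over, 37% of 46 members fell (median 0.13, against 0.39). By class, 84.6% of 39 KRAB members and 84.6% of 13 other members fell below 4 CPM, with medians of -1.25 and -1.37. Of genes at 4 to 8 CPM, 91.1% of 45 KRAB members fell, 72.7% of 11 other members, and 67.6% of 1164 genes. At 8 to 16 CPM the shares were 74.3% of 35 KRAB members, 71.4% of 21 others and 61.7% of 1541 genes. The classes thus had like shares below 4 CPM and at 8 to 16 CPM and stood further apart in the other bins. At 16 to 32 CPM the shares were 81.3% of 16 KRAB members, 40% of 40 other members and 54.8% of 1886 genes. At 32 CPM and over, 7 of 9 KRAB members fell (77.8%), 10 of 37 others (27%) and 26.9% of 4837 genes. The share of KRAB members that fell was above that of all genes in each of the 5 bins. The share of the other members was above it in the 3 bins under 16 CPM, below it at 16 to 32 CPM and level with it at 32 CPM and over. Bins of under 20 genes (16 and 9 KRAB members, 13 and 11 others) are thin, and no test was run on these shares.

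**Figure D3:**
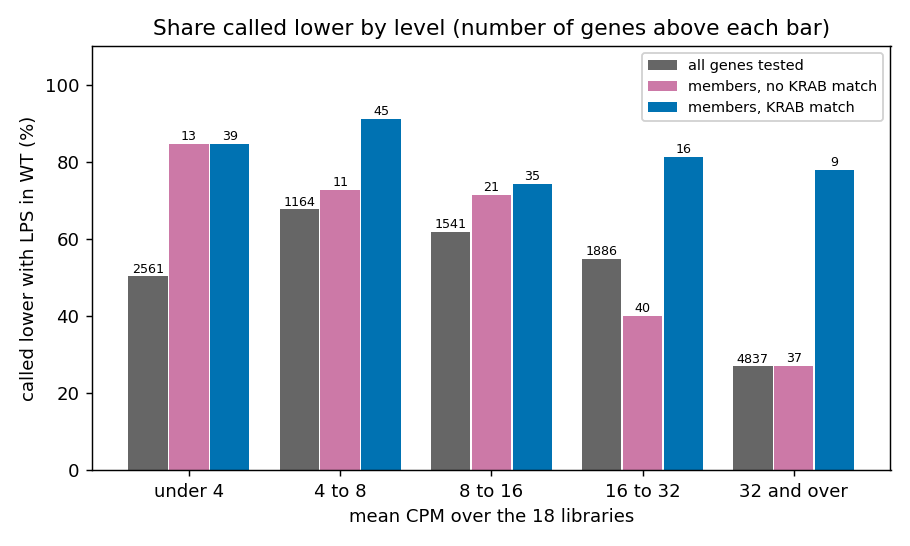
Share of genes called lower with LPS in WT (y axis, percent, from 0) by mean CPM over the 18 libraries (x axis, 5 bins), with the number of genes above each bar. Blue bars (KRAB members) stay between 74.3% and 91.1%, while grey bars (all genes) run from 67.6% at 4 to 8 CPM to 26.9% at 32 CPM and over.

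The promoter letters shown above went with the same direction. Of the 33 members with the ZNF143-type letters, 30 fell and 2 rose in WT, with a median of -1.12 in WT and -1.03 in KO. Of the 193 with a promoter but without the letters, 124 fell and 43 rose, with medians of -0.56 and -0.62. Since 27 of the 33 were KRAB members, the letters and the class overlap. Within KRAB members, 26 of the 106 that fell held the letters (24.5%) and 1 of the 22 that did not fall (4.55%). Of all genes tested, 44.7% fell and 40.7% rose in WT. The responses of all 294 genes of the promoter table with the letters were not counted. As the letters were chosen after the members' promoters and values had been seen, these counts are descriptions, and no test was run on them.

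Zfp genes often lie side by side, since the family grew by local duplication. In the gene order of RefSeq (GRCm38.p6), 113 members stood next to another member, in 35 runs. Of these 90 fell and 12 rose in WT (median -0.88), and 86 had a KRAB match. Of the 155 that stood apart, 92 fell and 41 rose (median -0.38), and 58 had a KRAB match. In the longest run, the 10 KRAB members Zfp874a, Zfp874b, Zfp58, Zfp87, Zfp748, Zfp729b, Zfp729a, Zfp738, Zfp65 and Zfp85, all 10 fell, by log2 fold changes from -3.03 to -0.20. A run of 7 from Zfp60 to Zfp850 fell as a whole (median -1.45). A run of 8 was mixed, with 6 lower and 2 higher, and holds Zfp566, at -2.31, and Zfp382, at 1.18, with Zfp260 between them. Pairs such as Zfp874a and Zfp874b are near copies, and how shared reads were counted is not stated, so their single values are less certain.

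Among KRAB members, the lowest log2 fold changes were those of Zfp61, Zfp157, Zfp398, Zfp760 and Zfp874b. Zfp61 (gene ID 22719) lay at 10.4, 10.6, 10.0 and 10.0 CPM in WT control and at 1.12, 1.33, 1.00, 1.04 and 1.14 CPM in WT LPS libraries. In KO it lay at 9.44, 10.8, 12.1 and 10.4 CPM in control and at 0.67, 0.94, 1.04, 0.85 and 0.80 CPM with LPS. No LPS library came near a control library, and Zfp61 fell by 3.19 on the log2 scale in WT (SE 0.10, edgeR adjusted p = 2.2e-16) and by 3.63 in KO. Zfp157 (gene ID 72154) went from 30.2, 32.8, 36.8 and 35.1 CPM to 3.72, 2.91, 4.41, 4.5 and 3.42 CPM in WT (-3.15, SE 0.12, adjusted p = 1.9e-15). Its KO values were 35.2, 36.2, 36.9 and 31.9 CPM in control and 3.17, 5.04, 4.05, 3.26 and 3.21 CPM with LPS. Zfp398 (gene ID 272347) stood higher, at 70.2, 76.3, 83.3 and 76.7 CPM in WT control, and fell to 8.87, 6.33, 10.9, 10.8 and 7.89 CPM (-3.09, SE 0.11, adjusted p = 1.3e-15). The groups are far apart for all 3 genes in both genotypes. Zfp760 fell by 3.04, Zfp874b by 3.03, Zfp874a by 2.93 and Zfp316 by 2.60 in WT, and in KO by 3.16, 3.75, 2.67 and 3.12.

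Among KRAB members with known tasks are Zfp809, which silences murine leukaemia proviruses, and Zfp445, a guardian of imprinted loci. Zfp809 averaged 11.6 CPM in WT control and 13.3 CPM in WT LPS (0.19, SE 0.10, adjusted p = 0.097, -0.56 with total-count scaling). Zfp445, from 135 to 114 CPM, fell by 0.24 in WT (SE 0.06, adjusted p = 0.0004) and by 0.13 in KO (adjusted p = 0.029). The KO call ended when KO control replicate 1, 2 or 3 or KO LPS replicate 1 or 2 was left out, where the highest adjusted p was 0.079. The 13 KRAB members that rose in WT were led by Zfp456 and Zfp382. Zfp456 (gene ID 408065) rose from 0.98, 1.65, 1.72 and 1.79 CPM to 4.75, 5.46, 5.73, 4.82 and 5.37 CPM in WT (1.76, SE 0.16, adjusted p = 1.8e-09) and by 1.52 in KO. Zfp382 rose by 1.18 in WT and is described with the genotypes.

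Among members without a KRAB match, the extremes lay on both sides. Zfp395 (gene ID 380912), with 1 matched finger, had the lowest log2 fold change of all members. Its WT control libraries lay at 45.5, 61.0, 53.0 and 48.5 CPM and its WT LPS libraries at 2.24, 1.58, 3.91, 2.75 and 1.85 CPM. In KO it lay at 48.4, 56.1, 52.0 and 49.2 CPM in control and at 0.72, 1.53, 3.51, 2.00 and 2.25 CPM with LPS. The change was -4.39 in WT (SE 0.21, adjusted p = 9.8e-14) and -4.67 in KO (SE 0.22). Zfp3 fell by 2.98 and Zfp41 by 2.93 in WT, and by 3.41 and 3.06 in KO.

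Zfp800 (gene ID 627049) had the highest log2 fold change. It lay at 29.2, 31.9, 34.2 and 31.5 CPM in WT control and at 182, 244, 197, 197 and 210 CPM in WT LPS libraries (2.70, SE 0.07, adjusted p = 1.3e-17). In KO it lay at 32.5, 32.8, 34.1 and 31.0 CPM and at 245, 261, 237, 245 and 251 CPM (2.93). All LPS libraries stood far above all control libraries. Zfp366 (gene ID 238803), known as DC-SCRIPT, a dendritic cell transcription factor, was at 67.0, 67.2, 74.8 and 73.5 CPM in WT control. With LPS it was at 223, 286, 249, 272 and 288 CPM (1.90, SE 0.14, adjusted p = 7.9e-11). Its KO control libraries lay at 69, 64.0, 67.3 and 37.1 CPM, with replicate 4 apart from the rest, and its KO LPS libraries at 245, 224, 187, 193 and 224 CPM (1.85, or 1.68 without KO control replicate 4). Zfp513 (gene ID 101023) rose from a mean of 28.3 to 106 CPM in WT (1.90, adjusted p = 1.8e-15) and from 30.8 to 123 CPM in KO (2.00). Zfp217, an oncoprotein that works with the corepressor CoREST, rose from 142 to 471 CPM in WT (1.73, SE 0.09, adjusted p = 3.9e-13) and from 139 to 516 CPM in KO (1.89). These 4 genes rose with total-count scaling too, by 0.98 to 1.95 in WT. Zfp296, Zfp62, Zfp488, Zfp189 and Zfp280b followed, with log2 fold changes of 1.70, 1.44, 1.38, 1.30 and 1.22 in WT and 1.80, 1.76, 1.61, 1.36 and 1.39 in KO.

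**Figure D4:**
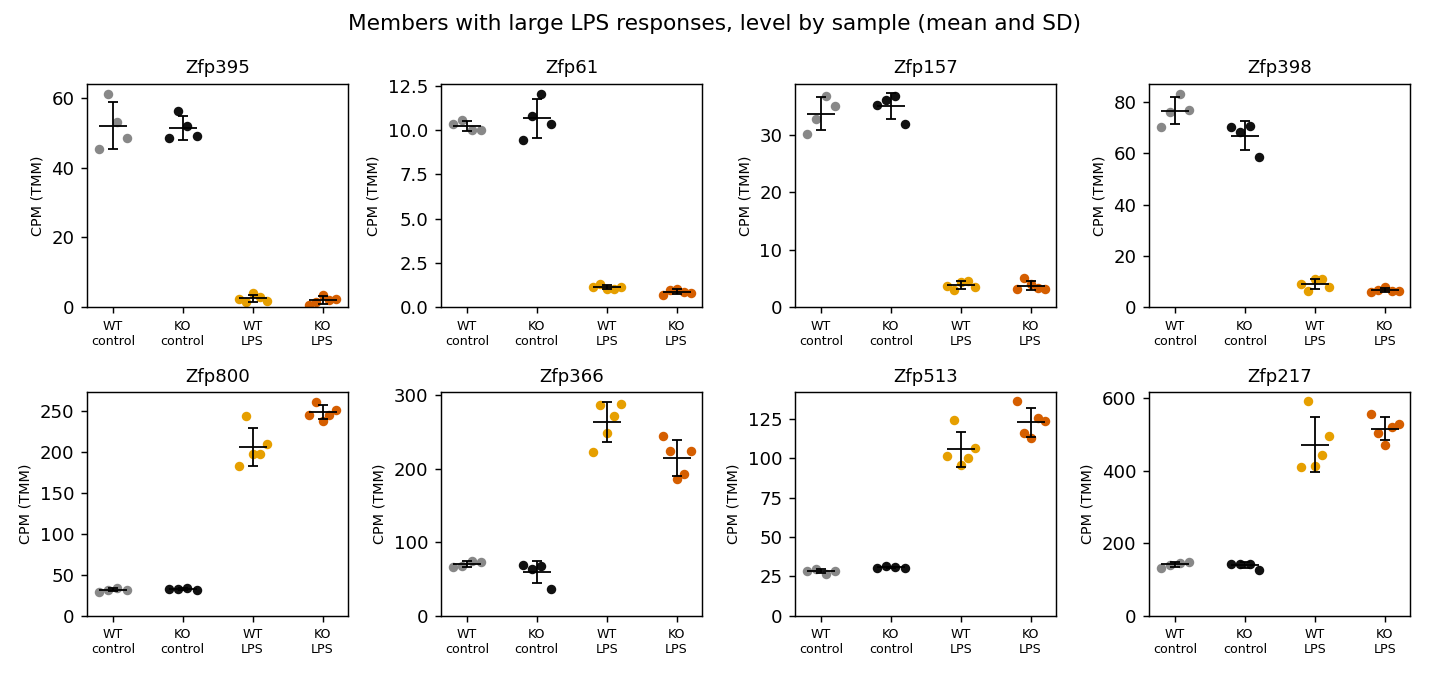
Level in CPM scaled with TMM factors (y axis, linear, from 0) of 8 members in each library, by group (x axis), 1 point per library, with the group mean and SD. In the upper row (Zfp395, Zfp61, Zfp157, Zfp398) all LPS libraries lie below all control libraries, and in the lower row (Zfp800, Zfp366, Zfp513, Zfp217) all lie above.

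Members with known functions outside KRAB repression differed among themselves. Zfp131, a BTB domain transcription factor, rose from 25 to 54.8 CPM in WT (1.13, SE 0.07, adjusted p = 8.5e-12) and by 1.28 in KO. Zfp281, a regulator of pluripotency genes, rose by 0.77 in WT (0.02, adjusted p = 0.76, with total-count scaling) and Zfp148, its close relative, fell by 0.35. Zfp706, a small protein, fell from 111 to 43.3 CPM in WT (-1.36, SE 0.07, adjusted p = 5.3e-13) and by 1.67 in KO. Zfp598, the ubiquitin ligase that marks collided ribosomes, fell from 46.9 to 25.8 CPM (-0.86, SE 0.08, adjusted p = 1.3e-09) and by 0.94 in KO. For several others the direction depended on the scaling. Zfp207, a kinetochore and splicing factor, changed by 0.52, Zfp91, a ubiquitin ligase, by 0.54, and Zfp410, an activator of Chd4, by 0.34 in WT with TMM. With total-count scaling the same genes changed by -0.23, -0.20 and -0.40. Zfp384 was at 0.13 (adjusted p = 0.049), Zfp292 at 0.30 (adjusted p = 0.052) and Zfp318 at 0.13 (adjusted p = 0.087) in WT, and at -0.61, -0.44 and -0.62 with total-count scaling. The call of Zfp384 in WT ended when any 1 of 13 of the 18 libraries was left out (adjusted p up to 0.12). Zfp335 (-0.11, adjusted p = 0.22), Zfp622, a factor of large ribosomal subunit assembly (-0.06, adjusted p = 0.36), and Zfp710 (-0.07, adjusted p = 0.54) did not pass in WT. Zfp335 was called on both sides under other settings, at 0.23 in WT with the GC and length correction (adjusted p = 0.0026) and at -0.85 with total-count scaling (adjusted p = 7.9e-08).

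Per length, the members ranged from 0.322 to 171 TPM as means over the 18 libraries. The highest were Zfp207 at 171 TPM, Zfp366 at 88.7 TPM, Zfp710 at 85.6 TPM, Zfp217 at 83.2 TPM and Zfp513 at 53.2 TPM. None of these 5 had a KRAB match. Zfp207 lay at 172 to 197 TPM in 7 of 8 control libraries and at 162 TPM in KO control replicate 4, and at 155 to 170 TPM in LPS libraries. Zfp710 went from 92 to 121 TPM in control to 46.7 to 83.8 TPM with LPS. The order of Zfp366, Zfp710 and Zfp217 thus differed between control and LPS. These TPM values carry no TMM factors, so they do not show the direction of a gene with LPS. With TMM factors, as given above, Zfp207 was higher with LPS in WT and Zfp710 did not pass. The lowest members were Zfp697, Zfp704 and Zfp229, at 0.322, 0.679 and 0.707 TPM.

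The summed level of the members, in which abundant genes weigh most, was 6257 ± 183 CPM in WT control (SD, n = 4), 6225 ± 266 in WT LPS (n = 5), 6165 ± 206 in KO control (n = 4) and 6302 ± 43.7 in KO LPS (n = 5), with overlapping ranges. The median log2 CPM of the members was nevertheless 3.74 ± 0.03 in WT control and 3.08 ± 0.07 in WT LPS. Without TMM factors the sum was 8527 and 5061 CPM, and per length 3487 ± 170 TPM in WT control and 2097 ± 128 TPM in WT LPS.

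Partners of KRAB proteins were read from a list of 33 corepressor and heterochromatin genes. With LPS, 22 fell (66.7%) and 7 rose (21.2%) in WT, and 22 and 7 in KO, with a median of -0.40 in both. Of all genes, 44.7% fell and 40.7% rose in WT, and 46.2% and 40% in KO. With total-count scaling 29 of the list fell and 3 rose in both. Of all genes, 69.9% then fell and 19.9% rose in WT, and 70.4% and 20.2% in KO. Trim28, the partner that KRAB domains bind, fell from 226 ± 10.2 to 85.4 ± 15.8 CPM in WT (-1.40, SE 0.10, adjusted p = 5.2e-11) and from 220 to 77.1 CPM in KO. Setdb1 fell from 76.6 to 41.1 CPM in WT (-0.90, SE 0.07, adjusted p = 9.3e-11) and from 74.6 to 36.4 CPM in KO. Cbx3, an HP1 protein, had the lowest log2 fold change (-1.99 in WT, -2.44 in KO), followed by the maintenance DNA methyltransferase Dnmt1 (-1.80 and -1.99) and its guide Uhrf1 (-1.52 and -1.74). The highest were Daxx, a histone H3.3 chaperone (3.99 and 3.99), Morc3, a nuclear body ATPase (1.48 and 1.61), and Hdac1, a histone deacetylase (1.26 and 1.35).

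Other zinc finger families were read by symbol at the same minimum. Of 16 Zscan and Zkscan genes 12 fell (75%) and 2 rose (12.5%) in WT, with a median of -1.06, against 44.7% and 40.7% of all genes. Of 38 Zbtb genes 18 fell (47.4%) and 15 rose (39.5%) (median -0.13, 29 and 9 with total-count scaling), and of 10 Klf genes 5 fell and 5 rose.

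Between the genotypes, few members differed before stimulation. Of 268 members, none was higher in KO and 2 were lower, against 1.89% and 0.542% of all genes, with 17 members (6.34%) at an unadjusted p under 0.05, next to 13.8% of all genes. DESeq2 and limma-voom each called 1 member higher, against 2.76% and 2.57% of all genes. Control libraries of the genotypes did not overlap for 11 members that were higher and 9 that were lower in KO, against 9.22% and 5.45% of all genes. The median was 0.01. The pair called were Zfp69 and Zfp382, both with a KRAB match.

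Zfp69 (gene ID 381549), a KRAB gene linked to diabetes in mice, had the lowest log2 fold change between genotypes, at low counts. It lay at 3.76, 3.52, 3.92 and 2.31 CPM in WT control and at 0.68, 0.96, 1.29 and 0.88 CPM in KO control (-1.82, SE 0.31, adjusted p = 0.0025). With LPS it lay at 3.27, 0.72, 2.50, 2.97 and 1.57 CPM in WT and at 0.36, 0.20, 0.25, 0.30 and 0.65 CPM in KO (-2.65, SE 0.39, adjusted p = 0.00016). Every KO library was below every WT library in both treatments, although WT LPS replicate 2, at 0.72 CPM, came close to the highest KO value of 0.65 CPM. Both calls held in each alternative run. With each library left out in turn, the log2 fold changes were -2.0 to -1.69 in control and -2.99 to -2.47 with LPS. Zfp69 is also the member nearest to the count minimum, with a mean count of 50.2. It passed that minimum mainly through the WT libraries, where it was higher. Its place among the members and this contrast are therefore linked.

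Zfp382 (gene ID 233060) was lower in KO before LPS and level with WT after it. Its libraries lay at 30.5, 34.7, 36.4 and 33.3 CPM in WT control and at 26.7, 28.8, 27.2 and 22.7 CPM in KO control, which do not overlap (-0.36, SE 0.07, adjusted p = 0.011). With LPS they lay at 68.8, 79.4, 73.8, 76.7 and 82.1 CPM in WT and at 77.8, 78.4, 72.3, 77.0 and 82.8 CPM in KO (0.03, adjusted p = 0.83). The LPS response was accordingly larger in KO, at 1.56 against 1.18 (interaction 0.38, SE 0.10, adjusted p = 0.034). The control call ended without WT control replicate 3 (adjusted p = 0.066), and the interaction ended when any 1 of 10 libraries was left out (adjusted p up to 0.091).

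With LPS, the genotypes differed for 14 members. In KO 6 members were higher and 8 lower, against 5.33% and 5.56% of all genes, with 45 (16.8%) at an unadjusted p under 0.05, next to 26.3% of all genes. LPS libraries of the genotypes did not overlap for 3 members that were lower (Zfp69, Zfp961 and Zfp52) and for none that was higher, against 3.2% and 3.31% of all genes. The counts depended on WT LPS replicate 2, for the members as for all genes. Without it 19 members were higher (7.09%) and 24 lower (8.96%), against 13.5% and 14.1% of all genes. With total-count scaling 2 were higher and 24 lower (8.96%), against 2.99% and 10.1% of all genes. With the replicate block by the sets of library numbers, 8 were higher (2.99%) and 12 lower (4.48%), against 8.26% and 8.11%. In the 4 sets with all groups, 42 members were higher (15.7%) and 65 lower (24.3%) in KO in every set, against 23.2% and 23.4% of all genes. The counts came down to 2 higher without another library (WT LPS replicate 4 or 5, KO LPS replicate 1 or 4) and to 4 lower without KO LPS replicate 1. Fitted on the LPS samples alone, none was higher and 3 were lower, Zfp69, Zfp971 and Zfp740, against 2.68% and 2.8% of all genes.

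Higher in KO with LPS were Zfp991 (0.34), Zfp62 (0.30), Zfp219 (0.29), Zfp800 (0.27), Zfp213 (0.23) and Zfp513 (0.22). Zfp991 was at 12.9, 15.9, 13.8, 14.4 and 13.9 CPM in WT and at 15.4, 20.8, 18.6, 17.7 and 16.8 CPM in KO (SE 0.08, adjusted p = 0.006), where WT LPS replicate 2 lay above KO LPS replicate 1. For Zfp62 the WT libraries were at 157, 257, 179, 177 and 187 CPM and the KO libraries at 234, 262, 224, 233 and 227 CPM (SE 0.09, adjusted p = 0.038). Replicate 2 was the highest library of each genotype there. With total-count scaling Zfp62, Zfp219, Zfp213 and Zfp513 did not pass. Leaving out any 1 of 9 libraries ended the calls of Zfp62 and Zfp219, any 1 of 10 that of Zfp213 and any 1 of 7 that of Zfp513.

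Lower in KO with LPS, besides Zfp69, were Zfp946 (-0.59), Zfp971 (-0.52), Zfp398 (-0.45), Zfp961 (-0.44), Zfp954 (-0.41), Zfp703 (-0.31) and Zfp740 (-0.31). Zfp971 (gene ID 626848) lay at 25, 31.4, 36.8, 39.4 and 33.2 CPM in WT and at 22.1, 25.3, 25.4, 20.9 and 22.1 CPM in KO (SE 0.11, adjusted p = 0.0034). Only WT LPS replicate 1 overlapped with the KO libraries. Zfp740 (gene ID 68744), without a KRAB match, lay at 46.0, 36.7, 47.7, 47.4 and 41.9 CPM in WT and at 33.7, 36.7, 37.9, 34.0 and 35.6 CPM in KO (SE 0.06, adjusted p = 0.0025), where WT LPS replicate 2 lay among the KO values. Zfp703 rose with LPS in both genotypes, to 37.8 CPM in WT and 30.4 CPM in KO. Zfp946, Zfp398 and Zfp961 fell in both and reached 1.59, 8.96 and 2.16 CPM in WT and 1.05, 6.57 and 1.59 CPM in KO. Leaving out any 1 of 9 libraries ended the call of Zfp946, any 1 of 10 that of Zfp954, and any 1 of 5 those of Zfp398 and Zfp961.

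In the interaction of genotype and LPS, 1 member was higher and 1 lower, against 1.05% and 2.85% of all genes, with 30 (11.2%) at an unadjusted p under 0.05, next to 18.5% of all genes. Besides Zfp382 this was Zfp467 (gene ID 68910), which has 12 fingers and no KRAB match and is known as a driver of fat cell formation. It lay at 8.99, 11.0, 9.25 and 9.83 CPM in WT control and at 5.91, 7.30, 8.64, 7.70 and 6.89 CPM in WT LPS libraries. In KO it lay at 11.2, 12.9, 12.4 and 10.5 CPM in control and at 6.25, 5.84, 6.23, 5.86 and 6.21 CPM with LPS. The fall was larger in KO, at -0.95 against -0.42 (interaction -0.53, SE 0.14, adjusted p = 0.034), and ended as a call when any 1 of 10 libraries was left out (adjusted p up to 0.087) and with DESeq2 size factors (adjusted p = 0.052). Without WT LPS replicate 2, 4 members were higher (1.49%) and 8 lower (2.99%) in the interaction, against 4.42% and 8.09% of all genes. With the block by the sets of library numbers 2 were higher and 4 lower, against 2.1% and 5.36% of all genes.

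**Figure D5:**
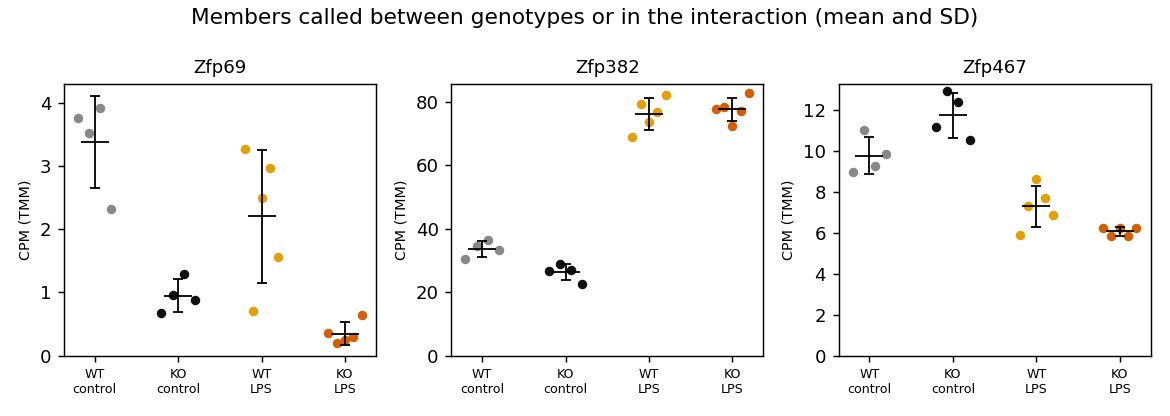
Level in CPM scaled with TMM factors (y axis, linear, from 0) of Zfp69, Zfp382 and Zfp467 in each library, by group (x axis), 1 point per library, with the group mean and SD. Zfp69 is lower in KO in both treatments (0.20 to 1.29 CPM), Zfp382 is lower in KO control and overlaps between genotypes with LPS, and Zfp467 goes from above WT in control to below it with LPS in mean.

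Of the 33 corepressor and heterochromatin genes, none was called between genotypes in control, by edgeR, against 1.89% of all genes higher and 0.542% lower. At an unadjusted p under 0.05 stood 2 of them, next to 13.8% of all genes. With LPS, Atf7ip, a cofactor of Setdb1, was higher in KO (0.31, SE 0.07, adjusted p = 0.008). Cbx3 (-0.45), Uhrf1 (-0.44), Dnmt1 (-0.36), Suv39h1 (-0.28) and Ehmt2 (-0.18) were lower in KO. These calls with LPS were 3.03% of the list higher and 15.2% lower, against 5.33% and 5.56% of all genes. Trim28 (-0.15, adjusted p = 0.35) and Setdb1 (-0.18, adjusted p = 0.088) did not pass. Without both replicates 2 of the LPS groups, 4 of the 33 were higher and 9 lower in KO with LPS, against 14.4% and 12.4% of all genes. In KO control 3 were then lower, against 3.27% of all genes.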

How the data were processed

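RNA sequencing (total RNA, DNBSEQ, 150-base paired reads) was deposited for 18 samples as 1 table of 16614 genes. The submitters' processing notes name HISAT, Bowtie2 and the GRCm39 build, with no version. How reads that map to several genes were counted is not stated. The authors deposited estimated counts, of which 6.37% were not whole within 0.001, and TPM, which is scaled by length. The estimated counts were rounded. Genes were kept by edgeR's filterByExpr (minimum count 10, total 15), scaled by TMM and fitted in 1 model of the 4 groups with edgeR 4.0.16 (R 4.3.3, quasi-likelihood, biological coefficient of variation 0.0934). P-values were adjusted by Benjamini-Hochberg over 11989 genes, with 0.05 as the threshold. The code was tested on simulated data. FPKM values, also deposited by the authors, were not used. TPM served to compare levels between genes and, for a few members and the summed level, to describe groups. It carries no TMM factors and was used in no test.

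The members and gene lists were chosen with earlier results of these data known. Named genes are well-known members, the 10 highest and 10 lowest with LPS in WT, members called between genotypes or in the interaction, the highest and lowest by TPM, those at the count minimum and, from the partner list, the 3 largest changes each way. Genes named for promoter letters, neighbour runs or the class of their protein were chosen after their values were seen, as were the bins of level and the promoter letters. Protein classes came from the longest open reading frame of each gene in GENCODE M21, and gene order and promoters from RefSeq GRCm38.p6. This class step was not planned and replaced a protein table that was not used here.

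Library names carry numbers that run in sets of 4. Deviations of WT control and WT LPS libraries of the same set correlated at 0.14 to 0.273 in 4 of 4 pairs, and those of KO in 2 of 4 pairs above 0.1. Of 25 pairs with the same replicate number, 6 were above 0.1. Alternatives were other scalings, no filter, DESeq2 1.42.0, limma-voom (limma 3.58.1), blocks, offsets for GC content and length, a higher count minimum and leaving out libraries.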

Additional observations from a re-analysis of the deposited data

Results flagged for a closer look

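Single libraries stood far from the rest of their group in 11 of the 188 groups looked at (47 named members in 4 groups), by Dixon's criterion at 95%, which chance alone meets in about 1 in 20 groups. KO control replicate 4 was the library apart in 5 of them. There Zfp366 was at 37.07 CPM with the nearest library at 64.04 CPM. Zfp217 was at 126.9 CPM (nearest 142.4), Zfp706 at 132.7 CPM (nearest 120.8), Zfp219 at 23.93 CPM (nearest 26.12) and Zfp946 at 9.447 CPM (nearest 7.896).

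In the KO LPS group, Zfp62 was at 262.5 CPM in replicate 2 (nearest 234.3), and replicate 3 had Zfp488 at 28.75 CPM (nearest 32.37) and Zfp398 at 7.856 CPM (nearest 6.479). In WT LPS replicate 2, Zfp189 was at 11.49 CPM (nearest 6.841). In the WT control group, Zfp219 was at 29.79 CPM in replicate 2 (nearest 25) and Zfp946 at 10.11 CPM in replicate 3 (nearest 8.602). The summed CPM of all members was also apart in WT LPS replicate 1, at 5767 (nearest 6268).

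The LPS response differed between WT and KO for Zfp382, with an interaction of 0.3836 on the log2 scale, and for Zfp467, with -0.5278, both at an edgeR adjusted p of 0.034. Each call ended when any 1 of 10 libraries was left out (adjusted p up to 0.091 for Zfp382 and 0.087 for Zfp467), and that of Zfp467 also with DESeq2 size factors (adjusted p = 0.052).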

How the results depend on the processing

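The excess of lower over higher members with LPS was seen in both genotypes under each alternative run. Total-count scaling gave 18 higher in WT and 19 in KO, medians of -1.326 and -1.417, a control genotype median of -0.03177, 2 higher and 24 lower in KO with LPS (median -0.1125; 10.1% of all genes were lower) and 4 lower in the interaction (1.49%, against 3.49% of all genes). A mean count of at least 200 left 174 members and 8574 genes and gave 102 lower in WT (58.6%, against 41.6% of genes) and 100 in KO (57.5%, against 43.1%) (medians -0.2926 and -0.262). It gave 1 lower in KO control (0.548% of genes) and 4 lower in KO with LPS (6.55% of genes). DESeq2 size factors gave medians of -0.533 and -0.5429 and 0 lower in the interaction (all genes 1.91%), and no filter gave medians of -0.6338 and -0.6774. DESeq2 gave medians of -0.5333 and -0.5432, 1 higher in KO control (all genes 2.76%), and 2 higher and 3 lower in the interaction (all genes 3.19% and 3.59%). Limma-voom gave 1 higher in KO control (all genes 2.57%) and 4 lower in KO with LPS (all genes 4.33%). Only the groups compared gave 1 higher in KO control (all genes 4.35%) and 0 higher and 3 lower in KO with LPS (all genes 2.68% and 2.8%). The GC and length correction gave 1 higher in KO control (all genes 1.19%). Without the library set that has no control samples (chosen after seeing the data), 1 was higher in KO control, 19 higher and 23 lower in KO with LPS, and 8 higher and 7 lower in the interaction. Of all genes, 3.64% were then higher in control, 14.4% higher and 12.4% lower with LPS, and 6.82% and 6.35% in the interaction. The cause was not tested.

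The replicate block by number gave 53 higher and 182 lower in WT (all genes 40.5% and 44.6%) and 58 and 181 in KO (all genes 39.9% and 46.1%). Between genotypes it gave 0 and 2 in control (all genes 1.76% and 0.409%) and 5 and 8 with LPS (all genes 5.2% and 4.73%). In the interaction it gave 1 and 1 (all genes 0.784% and 2.41%). The replicate block by set of library numbers gave 56 and 184 in WT (all genes 41.1% and 45.4%) and 60 and 180 in KO (median -0.6947, all genes 40.3% and 46.7%). Between genotypes it gave 2 and 2 in control (all genes 3.78% and 1.44%) and 8 and 12 with LPS (all genes 8.26% and 8.11%). In the interaction it gave 2 and 4 (all genes 2.1% and 5.36%). With that block and the GC and length correction, 2 were higher and 6 lower in control, 13 and 13 with LPS, and 4 and 2 in the interaction (median -0.0085). Of all genes, 2.61% were then higher and 2.74% lower in control, 13.3% and 7.41% with LPS, and 5.1% and 3.27% in the interaction.

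Leaving out each library in turn gave 51 to 56 higher and 180 to 183 lower in WT (median -0.6208 to -0.5719) and 57 to 60 higher and 175 to 182 lower in KO (median -0.6806 to -0.6219). It gave 0 to 2 higher and 1 to 2 lower in KO control, 2 to 19 higher and 4 to 24 lower in KO with LPS, and 0 to 4 higher and 0 to 8 lower in the interaction. The upper ends with LPS and in the interaction came without WT LPS replicate 2, where all genes called also grew (with LPS 13.5% higher and 14.1% lower).

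The summed level with LPS over control was 0.5935 in WT and 0.5947 in KO for total-count CPM, and 0.6012 and 0.6367 for TPM. Single genes turned sign under total-count scaling. In WT these were Zfp207 (-0.2275), Zfp318 (-0.6165), Zfp91 (-0.1993), Zfp809 (-0.5638), Zfp384 (-0.6115), Zfp292 (-0.4421) and Zfp410 (-0.3998). In KO they were Zfp207 (-0.1829), Zfp318 (-0.5523), Zfp91 (-0.2288), Zfp809 (-0.5766), Zfp335 (-0.6946), Zfp384 (-0.5636), Zfp292 (-0.3793) and Zfp410 (-0.4743). Under the GC and length correction these were Zfp318 (-0.01545), Zfp622 (0.02116), Zfp809 (-0.1323) and Zfp335 (0.2303) in WT, and Zfp318 (-0.078) and Zfp622 (0.02649) in KO. With the replicate block by set added, these were Zfp318 (-0.03057), Zfp622 (0.04628), Zfp809 (-0.1596) and Zfp335 (0.2574) in WT, and Zfp318 (-0.09192), Zfp622 (0.05098) and Zfp809 (-0.005606) in KO.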
